A study of Mus musculus with 4 samples.

Results

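The tripartite motif genes, named Trim in the mouse, were followed across 4 conditions of cultured dendritic cells. Members were all genes whose symbol is Trim followed by a number and at most 1 lower-case letter. RefSeq lists 68 such genes, and 58 of them had a probe set of their own among the 19938 genes named on the array. The other 10 (Trim5, Trim17, Trim30b, Trim30c, Trim34b, Trim43a, Trim43b, Trim43c, Trim60 and Trim61) had none that carried their symbol alone. Each of the 58 had 1 such probe set.

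The cells were mouse dendritic cells grown from bone marrow for 10 days with 20 ng/mL GM-CSF, a growth factor of myeloid cells. They were electroporated with an siRNA, a short RNA that triggers the breakdown of a matching transcript. Group 1 received si-NR4A3, against the orphan nuclear receptor NR4A3, and then 100 ng/mL LPS, a bacterial cell wall component sensed through TLR4. Group 2 received the control siRNA si-Ctrl and the same LPS. Group 3 received si-NR4A3 and stayed unstimulated, and group 4 received si-Ctrl and stayed unstimulated. LPS was given 24 hours after electroporation and cells were collected after 24 hours of LPS. The labels give the strain as BALB/c in one field and as C57BL/6 in another. Every group was measured on a single Affymetrix Mouse Gene 1.0 ST array, which leaves a difference of 2 arrays without an error estimate or p-value. Values are log2 expression, and a difference of 1 is a 2-fold change.

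Tripartite motif proteins are built from a RING domain, B-box domains and a coiled coil, followed by a C-terminal domain that differs between subfamilies. The RING makes most of them ubiquitin ligases, which attach ubiquitin chains to other proteins. In myeloid cells the family is known for members that restrict viruses and members that tune the sensing of nucleic acids and the NF-kB pathway. Many of those are themselves induced by interferon, which dendritic cells release after LPS. Other subfamilies act as corepressors on chromatin, bind microtubules or are found in striated muscle.

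The targeted gene was lower on both si-NR4A3 arrays. Nr4a3 stood at 9.39 and 7.15 with si-NR4A3, with LPS and unstimulated, against 11.77 and 11.21 with si-Ctrl (average -3.22 ± 0.36 SE, limma adjusted p = 0.0145). Of 11 dendritic cell markers, 10 had a mean at or above the median of named genes, 6.66, the exception being the cytokine receptor gene Flt3. None of the measured B cell (4), T and NK cell (5) or erythroid (2) markers reached it on any array, and 1 of 8 granulocyte markers, S100a8, had a mean above it. So did 2 of 5 plasmacytoid dendritic cell markers, Bst2 and Tcf4, and 1 of 5 mast cell and basophil markers, Kit. All 7 macrophage markers were above it. Their mean log2 level was 10.55 with si-NR4A3 and LPS, 9.75 with si-Ctrl and LPS, 10.70 with si-NR4A3 unstimulated and 10.10 with si-Ctrl unstimulated. The dendritic cell list had means of 10.85, 11.15, 10.28 and 10.86 in the same order.

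By their mean over the 4 arrays, 32 members lay at or above the median of named genes and 26 below it. All 4 arrays were at or above 6.66 for 27 members, no array was for 24, and 7 lay on both sides. The members just above the line were Trim32 with a mean of 6.71, and Trim54 and Trim46, each with 6.67. Just below it were Trim39 with 6.58, Trim45 with 6.50 and Trim7 with 6.41. By subfamily, the split was uneven. Of 18 regulators of nucleic acid sensing and NF-kB signalling, 14 lay above, as did 3 of the 4 chromatin-bound corepressors. Of 4 striated muscle members only Trim54 lay above, and Trim55, Trim63 and Trim72, which act in the sarcomere and in membrane repair, lay below with means between 5.54 and 6.24. Of the 4 microtubule-binding members, Trim36 and Trim46 were above, and Trim9 and Trim67, which are known from neurons, were below. Whether a probe set below the line detects its transcript cannot be told from these values, so differences there are given for completeness.

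LPS raised a block of members, led by Trim30d and Trim21. Over all 4 arrays, 11 of 34 fitted members were higher with LPS and 2 were lower. In each direction 1 called gene, Trim6 (higher) and Trim47 (lower), passed the filter only on arrays of the state where it is high, so the counts that hold them are a description. The fit was an additive limma model of siRNA and LPS over the 10592 genes that reached the median on any array, with adjusted p under 0.05. Among all 10592 genes, 15.6% were called higher and 14.4% lower by the same rule, so the members' 32.4% higher stands beside 15.6%, and their 5.88% lower beside 14.4%. The median LPS effect of the fitted members was 0.19, against 0.00 for all fitted genes. In such bulk RNA, a change in the share of cells of a type and a change in RNA per cell cannot be told apart. Nothing in the labels ties the arrays to separate cultures. With 1 array per condition, the p-values and SEs of this fit do not measure a spread between replicates. They rest on how far the LPS effect differs between the siRNAs, pooled with the same difference in all fitted genes. Cell type markers moved with LPS too: 2 of 7 macrophage markers were higher and 4 lower in the same fit, and 2 of 10 fitted dendritic cell markers were higher and 1 lower. Both fitted plasmacytoid dendritic cell markers were higher, Bst2, which is also an interferon-stimulated gene, by 2.52 and Tcf4 by 0.64. The mast cell marker Kit differed by 2.12 with si-NR4A3 and 0.24 with si-Ctrl and did not pass the test. Their part in the Trim values was not tested.

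Trim30d and Trim21 had the largest LPS effects of the family. Trim30d, a relative of Trim30a, stood at 10.58 with si-NR4A3 and LPS and 10.77 with si-Ctrl and LPS, against 8.12 and 8.19 in the unstimulated cells of the same siRNAs. Both LPS arrays were thus far above both unstimulated ones, by 5.51-fold with si-NR4A3 and 5.97-fold with si-Ctrl. The average effect was 2.52 ± 0.10 (SE, 4 arrays, limma adjusted p = 7.1e-05). Trim21, a ubiquitin ligase that is also a receptor for antibodies inside the cell, stood at 11.04 and 11.21 with LPS (si-NR4A3 and si-Ctrl), against 8.64 and 8.70 unstimulated. It was 5.26-fold higher with si-NR4A3 and 5.72-fold higher with si-Ctrl, with an average of 2.46 ± 0.10 (SE, limma adjusted p = 7.4e-05).

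Trim30a, which in the mouse is reported to restrain NF-kB after TLR signals through the adaptors TAB2 and TAB3, rose too. Its levels were 12.70 and 12.79 with LPS (si-NR4A3 and si-Ctrl), against 11.32 and 11.30 unstimulated, a 2.61-fold and a 2.81-fold difference (average 1.44 ± 0.10 SE, limma adjusted p = 0.00037). Tab2 and Tab3 did not pass the test, with LPS differences of 0.18 and 0.15 with si-NR4A3 and 0.15 and -0.08 with si-Ctrl.

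Trim30a and Trim30d belong to a run of 10 family members on chromosome 7 in which relatives of the retroviral restriction factor TRIM5 lie side by side. In RefSeq their order is Trim6, Trim34a, Trim5, Trim12a, Trim34b, Trim12c, Trim30b, Trim30c, Trim30a and Trim30d. Of these 10 genes, 6 had a probe set of their own, and 5 of those 6 were higher with LPS in the limma fit, beside 15.6% of all fitted genes. Trim6, 1 of the 5, passed the filter through an LPS array only. Trim12c stood at 8.89 and 8.76 with LPS (si-NR4A3 and si-Ctrl), against 7.50 and 7.75 unstimulated, with an average of 1.20 ± 0.13 (SE, limma adjusted p = 0.0016). Trim34a reached 8.67 on both LPS arrays, against 7.54 with si-NR4A3 and 7.79 with si-Ctrl unstimulated (average 1.00 ± 0.11 SE, limma adjusted p = 0.0018). In each of these genes both LPS arrays were above both unstimulated ones.

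Trim6 and Trim12a mark the dim end of the run. Trim6, a ligase of the IKK-epsilon branch of interferon signalling, stood at 6.65 and 6.70 with LPS (si-NR4A3 and si-Ctrl), against 6.05 and 5.93 unstimulated (average 0.68 ± 0.10 SE, limma adjusted p = 0.0055). It reached the filter on the array with si-Ctrl and LPS alone, so its call is no independent support for a rise. Trim12a lay between 4.95 and 5.11 on all 4 arrays and was not fitted. Some members of the run have promoter windows that are close copies. Those of Trim30a and Trim30d were identical at 93.9% of 295 aligned bases, and those of Trim12a and Trim12c at 95% of 260. Those of Trim12a and Trim5 were identical at 100% of 241. Aligned end to end, other pairs scored lower, such as Trim30a and Trim12c at 60.6% and Trim30a and Trim30c at 53.7%. The figure for Trim30c does not show that it is unlike Trim30a. Its window holds a long stretch much like that of Trim30a, at another distance from the start. Transcript and probe sequences were not compared. Where transcripts are as alike as the closest of these windows, probes may share signal, and the values of single copies are uncertain.

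The stretches below come from the RefSeq promoter windows of build GRCm38.p6, which run from 250 bases before to 50 after a gene's start. They are shown because they hold the letters of the interferon-stimulated response element core, the sequence bound by the factor complex that carries interferon signals to the nucleus. Capitals mark each match to the core, which is GAAA, any 2 bases and GAAA, or on the other strand TTTC, any 2 bases and TTTC. All are written 5′ to 3′ along the gene.
Trim21, chr7:102565433-102565494, minus strand: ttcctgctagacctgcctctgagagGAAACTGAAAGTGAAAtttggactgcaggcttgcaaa
Trim30d, chr7:104507856-104507915, minus strand: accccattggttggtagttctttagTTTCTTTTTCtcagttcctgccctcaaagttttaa
Trim30a, chr7:104465195-104465254, minus strand: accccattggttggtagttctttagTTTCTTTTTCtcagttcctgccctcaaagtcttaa
Trim34a, chr7:104244442-104244501, plus strand: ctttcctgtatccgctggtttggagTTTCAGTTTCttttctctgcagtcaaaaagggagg
Trim12c, chr7:104353344-104353403, minus strand: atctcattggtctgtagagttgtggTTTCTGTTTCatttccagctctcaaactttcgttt
Trim12a, chr7:104315451-104315510, minus strand: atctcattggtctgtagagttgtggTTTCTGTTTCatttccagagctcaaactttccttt
Trim26, chr17:36836961-36837026, plus strand: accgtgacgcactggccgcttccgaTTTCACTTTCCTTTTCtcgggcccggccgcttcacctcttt

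Trim21 and Trim26 each held 2 overlapping matches, and the others 1. Counting the first base of the transcript as 1 and the base before it as -1, the match began at -41 in Trim30d, -36 in Trim30a, -29 in Trim12c, -160 in Trim26, 11 in Trim34a and 14 in Trim21. Trim30a has 2 windows in the table, and in the one not shown the match began at 3. Of the 11 members higher with LPS, 9 had a window, and 6 of these 9 (66.7%) held the letters. Of the 15 other fitted members with a window, 0 did. Among all 27025 genes with a window, 3.99% held them, and among all 53 members with a window 17% did. These are descriptions: the motif was picked with the LPS effects known, the windows of the Trim12 and Trim30 copies are not independent, and a match is not a shown binding site. Of 22 members with a window that were dim on all arrays, 2 held the core, Trim12a and Trim2, while Trim25, Trim56 and Trim6 were higher with LPS and have no match in their windows. On either strand, 0 of the 9 genes had a window with the gamma-activated site (TTC, any 3 bases, GAA), against 9.55% of all genes with a window. For kappaB letters (GGG, any 2 bases, TTTCC) the count was 0 of 9 as well, against 1.89% of all genes. At such low shares a count of 0 among 9 genes is unremarkable, so neither count shows that these genes lack such sites.

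**Figure D1:**
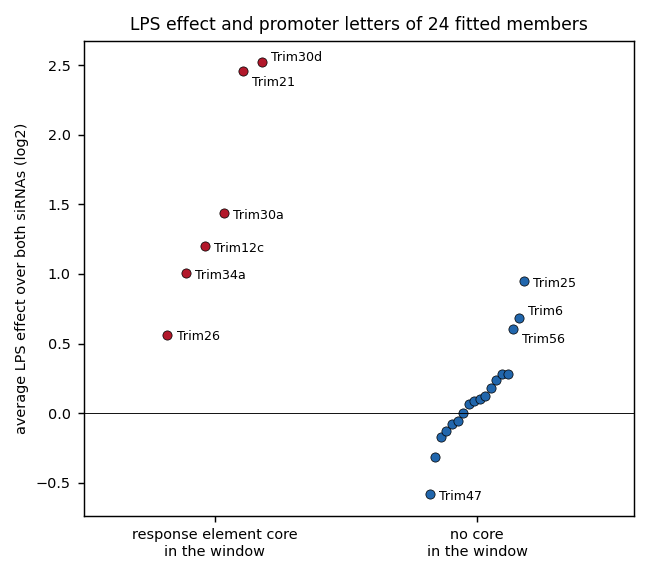
Average LPS effect over both siRNAs (log2, vertical axis) of the 24 fitted members with a RefSeq promoter window, each point 1 gene, split by whether the window holds the interferon-stimulated response element core (left) or not (right). The 6 members with the core lie between 0.56 and 2.52 with a median of 1.32, and the 18 without it between -0.58 and 0.95 with a median of 0.095; horizontal spread within a column only separates the points.

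The regulators of nucleic acid sensing made up the rest of the members that rose. Of 18, 14 were fitted, and 6 of them, Trim21 included, were higher with LPS, beside 15.6% of all fitted genes. Trim25, the ligase that ubiquitinates the RNA sensor RIG-I, stood at 10.84 and 11.09 with LPS (si-NR4A3 and si-Ctrl), against 9.79 and 10.25 unstimulated (average 0.95 ± 0.11 SE, limma adjusted p = 0.002). Ddx58, the gene that encodes RIG-I, was higher with LPS as well, by 1.83 with si-NR4A3 and 1.57 with si-Ctrl. Trim14, which in human cells is described as an adaptor at the mitochondrial protein MAVS, stood at 10.49 and 10.67 with LPS (si-NR4A3 and si-Ctrl), against 9.83 and 9.71 unstimulated (average 0.81 ± 0.11 SE, limma adjusted p = 0.0044). Both genes had all LPS values above all unstimulated ones.

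Trim35 had the largest effect of this group after Trim21. It stood at 10.75 on both LPS arrays, against 9.49 with si-NR4A3 and 9.79 with si-Ctrl unstimulated (average 1.11 ± 0.11 SE, limma adjusted p = 0.0015). Trim56, a ligase linked to the DNA-sensing STING pathway, stood at 9.60 and 9.43 with LPS (si-NR4A3 and si-Ctrl), against 8.98 and 8.84 unstimulated (average 0.60 ± 0.10 SE, limma adjusted p = 0.0069). Trim26, a ligase reported to act on the transcription factor IRF3 in the nucleus, stood at 8.17 and 8.28 with LPS (si-NR4A3 and si-Ctrl), against 7.72 and 7.60 unstimulated (average 0.56 ± 0.11 SE, limma adjusted p = 0.013). These are small changes: Trim56 differed by 0.62 with si-NR4A3 and 0.585 with si-Ctrl, and Trim26 by 0.45 and 0.67.

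The other 8 fitted regulators did not pass the test for LPS. Trim29, which lacks the RING domain, came nearest, at 0.40 ± 0.12 (SE, limma adjusted p = 0.051). Trim8, Trim23, Trim27, Trim62, Trim65, Trim68 and Trim11 had average LPS effects between -0.20 and 0.23. Trim38, Trim31, Trim39 and Trim40 were below the median on all 4 arrays.

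Trim47 and Trim16 were lower with LPS. Trim47 stood at 6.54 on both LPS arrays, against 7.11 with si-NR4A3 and 7.14 with si-Ctrl unstimulated (average -0.58 ± 0.10 SE, limma adjusted p = 0.0078). It entered the fit through its unstimulated arrays alone, so its call is no independent support for a fall. Trim16, a RING-less member tied to the clearance of damaged lysosomes, stood at 6.90 on both LPS arrays, against 7.42 and 7.37 unstimulated (average -0.49 ± 0.10 SE, limma adjusted p = 0.014). In both genes the pair of LPS values lay below the pair of unstimulated values, by at most 1.51-fold.

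**Figure D2:**
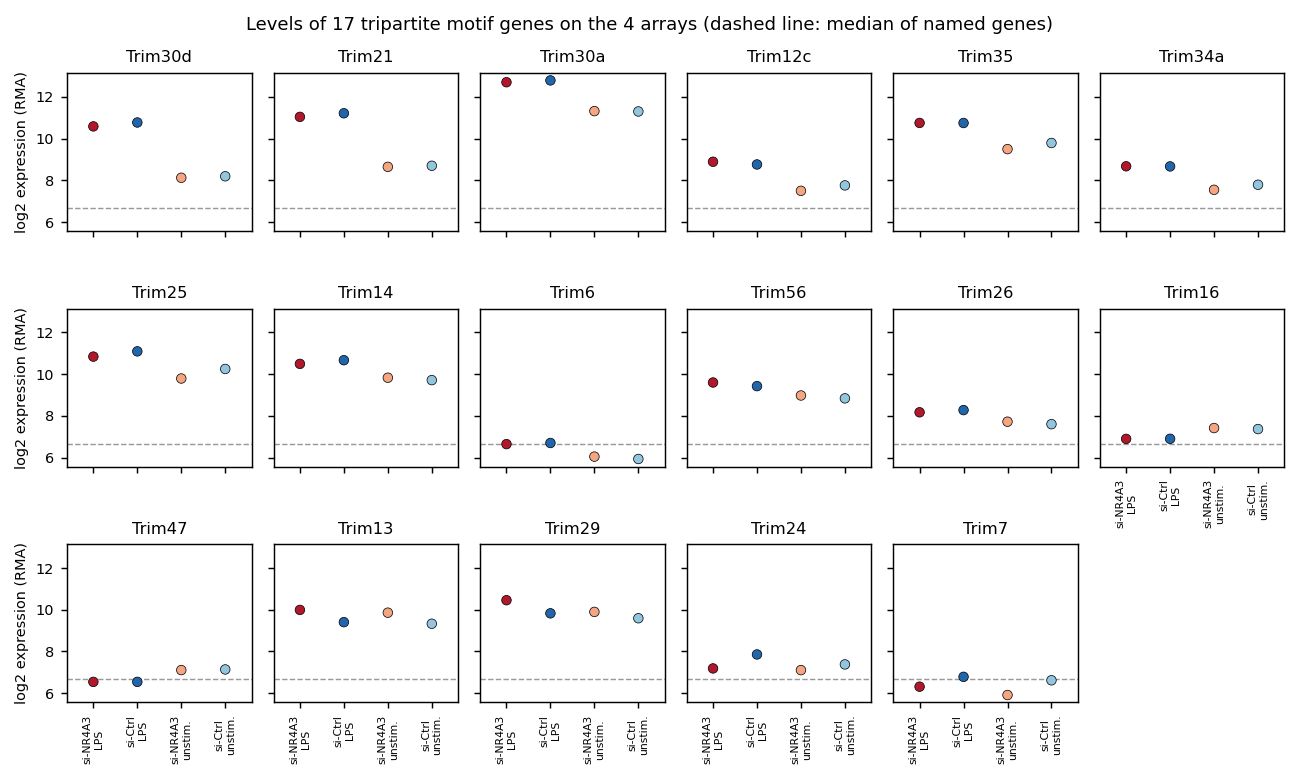
Log2 expression (RMA, vertical axis) of 17 tripartite motif genes on the 4 arrays, 1 point per array; the dashed line is the median of named genes, 6.66. In the first 11 panels both LPS arrays lie above both unstimulated ones, in Trim16 and Trim47 below them, and in Trim13, Trim29, Trim24 and Trim7 the si-NR4A3 and si-Ctrl arrays of a state lie apart. The genes were picked on these same 4 values, so such orders are likely, and their share among all genes was not counted.

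The corepressors on chromatin had small LPS differences. Trim28, the corepressor that zinc finger proteins recruit to silence retroelements, stood at 9.32 and 9.39 with LPS (si-NR4A3 and si-Ctrl), against 9.38 and 9.44 unstimulated. Trim33, of the same subfamily, stood at 9.10 and 9.27 with LPS (si-NR4A3 and si-Ctrl), against 8.81 and 9.18 unstimulated. Under the same siRNA, neither gene had its LPS array apart from the unstimulated one by more than 0.29. Trim24 differed by 0.08 with si-NR4A3 and 0.48 with si-Ctrl, with an average of 0.28 ± 0.13 (SE, limma adjusted p = 0.16).

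Among the NHL group, Trim3 stood at 8.54 and 8.39 with LPS (si-NR4A3 and si-Ctrl), against 8.58 and 8.59 unstimulated. Trim32, a ligase mutated in a human muscular dystrophy, stood at 6.69 and 6.61 with LPS (si-NR4A3 and si-Ctrl), against 6.85 and 6.71 unstimulated. Their average LPS effects were -0.12 and -0.13, and neither passed the test. Trim71, a stem cell member of the group, stayed between 6.23 and 6.35.

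Of the 4 microtubule-binding members, 3 lay near the median, and Trim9 was dimmer, with a mean of 5.66. Trim36 stood at 7.09 and 6.70 with LPS (si-NR4A3 and si-Ctrl), against 6.70 and 6.64 unstimulated. Trim46, which organises microtubules at the start of the axon, stood at 6.68 and 6.78 with LPS (si-NR4A3 and si-Ctrl), against 6.70 and 6.50 unstimulated. The values of each gene overlapped between the states or differed by under 0.4, and Trim67 stayed between 6.31 and 6.38.

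Of the muscle members, Trim54 stood at 6.71 and 6.72 with LPS (si-NR4A3 and si-Ctrl), against 6.69 and 6.57 unstimulated. Trim63, the muscle ligase of atrophy, stayed between 6.05 and 6.40, and Trim72, of membrane repair, between 5.92 and 6.04. Trim39 and Trim45, just under the median, stayed between 6.55 and 6.61 and between 6.44 and 6.58. All 4 arrays of these 4 dim genes were under the line.

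The brightest members of no fixed group were Trim41, Trim44 and Trim37. Trim41 stood at 9.37 and 9.32 with LPS (si-NR4A3 and si-Ctrl), against 9.33 and 9.24 unstimulated. Trim44, which lacks the RING domain, stood at 8.21 and 8.12 with LPS (si-NR4A3 and si-Ctrl), against 8.22 and 8.27 unstimulated. Trim37, a ligase linked to centriole number, stood at 7.40 and 7.22 with LPS (si-NR4A3 and si-Ctrl), against 7.49 and 7.76 unstimulated. Trim37 had the largest LPS difference of the 3, with an average of -0.31 ± 0.13 (SE, limma adjusted p = 0.13). None of these 3 and no fitted corepressor, NHL, microtubule-binding or muscle member passed the limma test for LPS, which does not show that they did not change.

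The members were also counted between pairs of arrays. With si-NR4A3, 9 of 32 members that passed the filter (the brighter array at or above 6.66) were at least 1.5-fold higher with LPS and 0 lower. Among all 10353 genes of that pair, 10.3% were higher and 6.88% lower. With si-Ctrl, 11 of 34 were at least 1.5-fold higher and 1, Trim47, lower, against 10.2% and 9.44% of 10346 genes. The 9 genes of the si-NR4A3 pair were all among the 11 of the si-Ctrl pair. The same overlap was not counted over all genes, so it is no trait of the family. The other 2 of the 11, Trim26 and Trim6, were 1.37-fold and 1.51-fold higher with si-NR4A3, and Trim6 had no array at the filter there. After repeated quantile normalization the si-NR4A3 count was 7, with Trim14 at 0.56 and Trim56 at 0.53, under the threshold of 0.585 on the log2 scale, and with si-Ctrl Trim56 was at 0.58. At least 2-fold, the counts were 7 with si-NR4A3 and 4 with si-Ctrl, against 5.31% and 5% of all genes, and 0 were lower with either siRNA, against 2.71% and 3.83%. Trim25, Trim34a and Trim35 made up that gap, at 2.07-fold, 2.18-fold and 2.39-fold with si-NR4A3 and 1.80-fold, 1.84-fold and 1.94-fold with si-Ctrl.

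The LPS effects of the members were of similar size with either siRNA. Over the 11 members that rose, the LPS effect with si-NR4A3 minus that with si-Ctrl ran from -0.29 in Trim14 to 0.39 in Trim12c, with a median of -0.105. It was positive in 5 of 11. The fit that picked these 11 has this difference as its residual, so genes with a large difference were less likely to be picked. The small differences of the 11 are therefore no independent support for likeness between the siRNAs. The median size of this difference was 0.205 for the 11, 0.15 for the 34 fitted members and 0.15 for all 10592 fitted genes, whose 95th percentile was 0.585. Over all genes higher with LPS in the limma fit, the median size was 0.167 and the median difference 0.048. With 1 array a condition this difference has no test. Across the 32 members above the median, Pearson's r of the LPS effects under the 2 siRNAs was 0.960, and over all 10034 such genes it was 0.902. The 2 pairs share no array, but genes are not independent replicates, and copies of the chromosome 7 run share sequence.

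**Figure D3:**
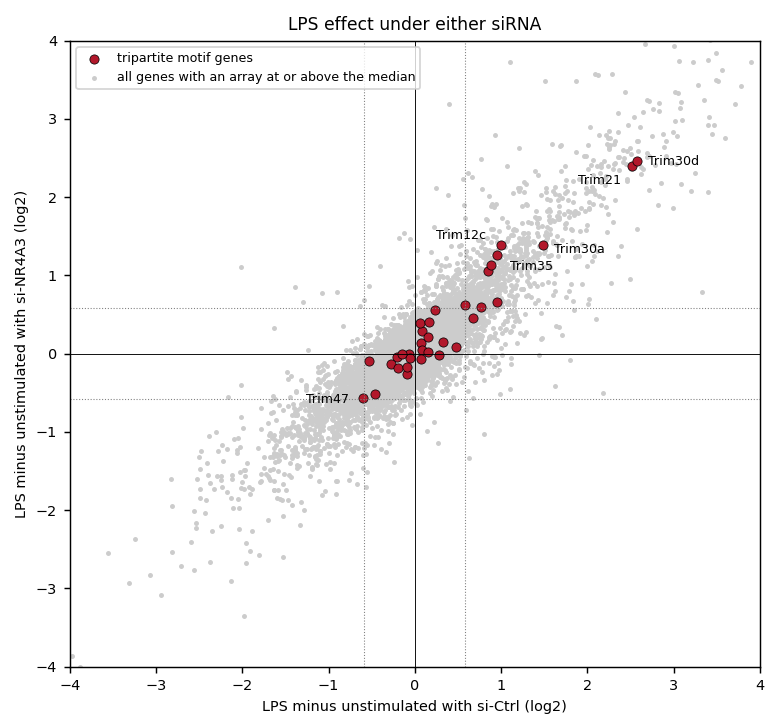
LPS minus unstimulated (log2) with si-NR4A3 (vertical axis) against the same difference with si-Ctrl (horizontal axis); red points are the 34 tripartite motif genes with at least 1 array at or above the median, grey points all 10592 such genes, and dotted lines mark 1.5-fold. Trim30d and Trim21 lie near 2.5 on both axes and the members that rose follow the grey cloud; 33 genes lie outside the axes.

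LPS also raised 19 of the fitted genes that make and carry interferon signals in the limma fit, which called 15.6% of all fitted genes higher. Of 35 measured genes of type I interferon signalling and nucleic acid sensing, 33 were fitted and 14 of these did not pass, among them Irf3, Mavs, Sting1 and Ifnar1. The list had median LPS differences of 0.72 with si-NR4A3 and 0.51 with si-Ctrl. Irf7, the factor that amplifies interferon production, differed by 2.85 with si-NR4A3 and 2.25 with si-Ctrl. The nucleic acid sensors Zbp1, Ifih1 and Dhx58 differed by 2.83, 2.35 and 2.42 with si-NR4A3 and by 2.36, 2.37 and 2.16 with si-Ctrl. The brakes on cytokine and interferon signals Socs1 and Usp18 differed by 2.36 and 2.27 with si-NR4A3 and by 2.51 and 2.21 with si-Ctrl. Stat2 and Irf9, subunits of the complex that binds the response element, differed by 2.13 and 0.79 with si-NR4A3 and by 2.05 and 0.63 with si-Ctrl. Ifnb1 itself was near the array's lowest values, between 4.97 and 5.10, at this time point.

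All 25 measured interferon-stimulated genes were higher with LPS in the limma fit, beside 15.6% of all fitted genes. Mx2 passed the filter through its LPS arrays only, so its call is no independent support for a rise. The list had median differences of 2.72 with si-NR4A3 and 2.48 with si-Ctrl. Ifit2, Rsad2, Ifit1, Ifit3, Cmpk2 and Isg20, antiviral effectors, had the largest differences. These lay between 3.95 and 4.85 with si-NR4A3 and between 4.05 and 4.73 with si-Ctrl. Among family members with other symbols, Pml, the organiser of nuclear bodies, was higher with LPS by 1.27 with si-NR4A3 and 1.44 with si-Ctrl. Mid1, a microtubule-binding relative, differed by 0.30 and 0.27 and did not pass the test. Of 14 measured genes that handle ubiquitin or the ubiquitin-like ISG15, 5 were higher with LPS and 1 lower, beside 15.6% and 14.4% of all fitted genes. The 5 were Ube2w, Usp15, Usp18, Ube2l6 and Uba7, and Usp18 is also counted in the signalling list. Ube2l6 and Uba7, which conjugate the ubiquitin-like ISG15, differed by 2.24 and 1.39 with si-NR4A3 and by 2.20 and 1.65 with si-Ctrl. Ube2d1, a ubiquitin-conjugating enzyme that works with many RING ligases, fell, by 0.35 with si-NR4A3 and by 0.36 with si-Ctrl.

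Silencing of NR4A3 moved few members. Over both states, 1 of 34 fitted members was higher with si-NR4A3 and 1 lower in the limma fit, 2.94% each, beside 1.98% of all fitted genes higher and 3.58% lower. With LPS, 2 of the 33 members that passed the filter were at least 1.5-fold higher and 1 lower, against 3.73% and 4.73% of 10210 genes. Without LPS, 0 of 32 were higher or lower, against 1.62% and 4.69% of 10257 genes. At 2-fold the counts were 0 in both directions and both states, against 0.47% higher and 1.67% lower of all genes with LPS and 0.205% and 1.72% without. These shares lie near those of all genes and are no result about the family. The median silencing difference of the members that passed the filter was 0.003 with LPS and 0.031 without, against 0.053 and 0.021 for all genes.

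Trim13, a ubiquitin ligase anchored in the endoplasmic reticulum, was the member that was higher. It stood at 9.99 with si-NR4A3 and 9.41 with si-Ctrl under LPS, and at 9.86 and 9.33 unstimulated, so both si-NR4A3 arrays were above both si-Ctrl arrays. The average silencing effect was 0.56 ± 0.10 (SE, limma adjusted p = 0.037), with differences of 0.59 with LPS and 0.53 without. Trim7, a binding partner of the glycogen primer glycogenin, was lower, at 6.31 with si-NR4A3 and 6.78 with si-Ctrl under LPS and at 5.91 and 6.62 unstimulated. Its average was -0.59 ± 0.11 (SE, limma adjusted p = 0.041). Trim7 entered the fit through 1 array, that with si-Ctrl and LPS, so its call is no independent support for a fall.

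Both calls were lost in some settings. For Trim13 the adjusted p was 0.068 with no filter, 0.05 after repeated quantile normalization and 0.062 after cyclic loess, none under the threshold, and between 0.027 and 0.032 in the other 3 settings tried. For Trim7 it lay between 0.055 and 0.078 in the same settings and with a trended prior, and was 0.03 in the other 2. Macrophage markers moved in the same comparison. In the limma fit 3 of 7 (C1qa, C1qb and C1qc) were higher with si-NR4A3, beside 1.98% of all fitted genes. The list's median silencing difference was 0.46 with LPS and 0.32 without. Of 10 fitted dendritic cell markers 1, the costimulatory gene Cd86, was lower in that fit, beside 3.58% of all fitted genes. At least 1.5-fold lower were 4 of these 10 with LPS and 2 without, against 4.73% and 4.69% of all genes. Ccr7 was among them in both states, at -0.74 with LPS and -3.53 without. At least 1.5-fold higher were 0 of the 10 markers in either state, against 3.73% of all genes with LPS and 1.62% without. Their part in the Trim values was not tested.

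Trim29 and Trim24 were past 1.5-fold with LPS and not without it. Trim29 stood at 10.46 with si-NR4A3 and 9.83 with si-Ctrl under LPS, and at 9.90 and 9.59 unstimulated (average 0.47 ± 0.12 SE, limma adjusted p = 0.08). Trim24, a corepressor that binds nuclear receptors, stood at 7.19 with si-NR4A3 and 7.86 with si-Ctrl under LPS, and at 7.11 and 7.38 unstimulated (average -0.47 ± 0.13 SE, limma adjusted p = 0.09). Neither passed the test over both states, and whether their silencing effects differ between the states could not be tested with these arrays. Trim25 had silencing differences of -0.25 with LPS and -0.46 without (limma adjusted p = 0.11), and Trim33 of -0.17 and -0.37 (limma adjusted p = 0.17).

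The members that LPS raised differed little between the siRNAs. Their silencing differences ran from -0.25 in Trim25 to 0.175 in Trim56 with LPS, with a median of -0.09, and from -0.46 to 0.14 in the same genes without LPS, with a median of -0.05. The interferon-stimulated gene list had medians of -0.18 with LPS and -0.37 without it. Of the 24 genes of that list that passed the filter without LPS, 5 were at least 1.5-fold lower with si-NR4A3, against 4.69% of all genes. Mx1 led them with a difference of -2.09. With LPS, 2 of 25 were lower by that rule, against 4.73% of all genes. The limma fit called 3.58% of all fitted genes lower with si-NR4A3. It called 2 of the 25 interferon-stimulated genes lower, Ifit1 and Ifit2, and 3 of 33 in the signalling list. Those 3 were Irf8, a factor of dendritic cell development, at -1.10 ± 0.10 (SE, limma adjusted p = 0.011), the TLR adaptor ligase Traf6 and the receptor kinase Tyk2. No test was made between the lists.

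**Figure D4:**
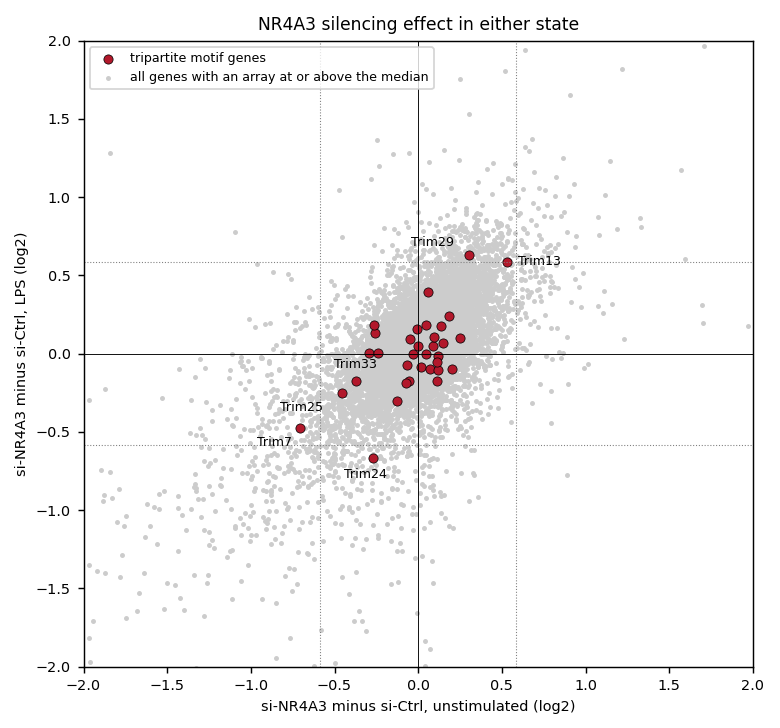
si-NR4A3 minus si-Ctrl (log2) with LPS (vertical axis) against the same difference in unstimulated cells (horizontal axis); red points are the 34 tripartite motif genes with at least 1 array at or above the median, grey points all 10592 such genes, and dotted lines mark 1.5-fold. Most members lie inside the dotted lines, Trim13, Trim29 and Trim24 sit just past a line with LPS and Trim7 past it without LPS; 45 genes lie outside the axes.

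The 26 members below the median on average had LPS differences between -0.35 and 0.60 with si-NR4A3 and between -0.70 and 0.77 with si-Ctrl, and silencing differences between -0.47 and 0.93 with LPS and between -0.72 and 0.31 without. Trim2, a neuronal member with NHL repeats, held the upper end for silencing with LPS, at 6.63 with si-NR4A3 and 5.69 with si-Ctrl, against 6.13 and 5.93 unstimulated. Trim59, a membrane-anchored member, stood at 5.50 with si-NR4A3 and 5.59 with si-Ctrl under LPS, and at 5.57 and 6.29 unstimulated. Its value with si-Ctrl unstimulated was thus the only one above 6. All arrays of both genes were under the filter, so neither was fitted or counted.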

How the data were processed

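Total RNA was profiled on 4 arrays, 1 per condition. Per the labels, the authors deposited log2 values from RMA, quantile-normalized between arrays. Affymetrix Expression Console 1.1 appears in the submitters' processing notes, and GeneSpring in the design text. Quantile normalization can hide a shift of most genes in 1 direction. Of 28856 probe sets, 21789 had 1 gene symbol in the platform annotation and were used, and a gene was taken at its probe set with the highest mean. The members, lists, motifs and tests were chosen with earlier results of these data known. Values on each array are given for called members, those nearest the median and the brightest 3 of each role group. From other lists up to 6 genes with the largest difference are named, plus partners of named members picked after their values were seen. Differences of 2 arrays were counted at 1.5-fold where the brighter array reached 6.66. limma 3.58.1 (R 4.3.3) fitted siRNA plus LPS (1 residual and 4.76 prior degrees of freedom, Benjamini-Hochberg over 10592 genes) and was tested on simulated data. Its residual holds the difference of LPS effects. Alternatives were other folds, filters, scalings, probe set means and a trended prior. The number of arrays limits the precision. RefSeq promoter windows (GRCm38.p6) covered 53 of 68 members.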

Additional observations from a re-analysis of the deposited data

How the results depend on the processing

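No paired analysis was possible because each condition has 1 array and the labels give no shared replicate numbers. The limma fit called 11 or 12 members higher with LPS and 2 lower under its 6 alternatives. Of the members at least 1.5-fold higher with LPS under si-Ctrl, 4 of 11 remained at 2-fold. Repeated quantile normalization took Trim14 and Trim56 under 1.5-fold with si-NR4A3 (7 higher in place of 9) and Trim56 with si-Ctrl (10 in place of 11). The 1 that was lower, Trim47, gave counts of 0 at 2-fold, at the 75th percentile filter (8.67) and under median centring, repeated quantile normalization and cyclic loess, and 2 with no filter. For silencing without LPS, no filter gave 2 lower where the count had been 0. For silencing with LPS, the 2 higher became 1 under median centring and repeated quantile normalization and 0 under cyclic loess and at 2-fold. The 1 lower became 0 at 2-fold and at the 75th percentile filter. The single members higher and lower with si-NR4A3 in the limma fit became 0 with no filter, repeated quantile normalization and cyclic loess; the lower one also became 0 with a trended prior. Over all genes that fit called 210 higher and 379 lower, with ranges of 24 to 322 and 132 to 467 over the alternatives. The cause was not tested, and no direction reversed. Probe sets below 6.66 limit what can be seen of the 26 dim members.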

Other observations

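Another 6 probe sets carry symbols of several genes, at least 1 of them a tripartite motif gene, and were used for no gene. The probe set shared by Trim5 and Trim12c stood at 9.06 with si-NR4A3 and LPS and 8.86 with si-Ctrl and LPS, against 8.01 and 8.15 unstimulated, and its LPS differences were 1.04 and 0.71. The probe set shared by Trim5, Trim12c and Trim12a had LPS differences of 0.84 with si-NR4A3 and 0.87 with si-Ctrl. Which of the copies gave the signal cannot be told from these probe sets. The probe set of Trim30b and Gm38525 stayed between 5.35 and 6.10, and that of Trim17 and H2aw, a histone gene, had LPS differences of -0.47 with si-NR4A3 and -0.32 with si-Ctrl. The probe sets of Trim60 with Trim61 and of the 3 Trim43 genes lay between 4.72 and 5.45.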
